A study of Mus musculus with 12 samples.

Results

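The Smad family of mouse was followed here through every probe set that names 1 of Smad1, Smad2, Smad3, Smad4, Smad5, Smad6, Smad7 or Smad9 and no other gene. A probe set is a group of short probes on an Affymetrix array that report 1 transcript together. The rule found 18 probe sets for these 8 genes among 45101 on the array: 3 each for Smad1, Smad3, Smad4 and Smad5, 2 each for Smad2 and Smad7, and 1 each for Smad6 and Smad9. They were measured on 12 arrays of total RNA, 2 (replicates a and b) in each of 6 groups. The groups were mice labelled Smad3-/- on a regular diet (KO_RD), wild-type mice on a regular diet (WT_RD), mice labelled Smad3-/- on a high fat diet with 55% fat (KO_HFD) and wild-type mice on that diet (WT_HFD). A separate experiment held diet-induced obese mice given the TGF-beta antibody 1D11 (DIO_aTGFb) or the control IgG 13C4 (DIO_IgG). Both were injected into the abdominal cavity 3 times a week for 8 weeks. The obese mice of both groups were also on a diet with 55% fat. Wild-type mice were C57BL/6, the obese mice are labelled C57J/B6, and mice labelled Smad3-/- were of mixed C57BL/6 and NIH Black Swiss strains, so genotype and strain cannot be told apart. The labels state no ages. The labels name no tissue, and Adipoq, the fat-cell hormone adiponectin, averaged 13.07 (KO_RD) to 14.15 (DIO_aTGFb) log2 units in the 6 groups.

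Smad proteins carry signals of the TGF-beta superfamily from membrane receptors to genes. TGF-beta and activin receptors phosphorylate the receptor-regulated Smad2 and Smad3, and bone morphogenetic protein (BMP) receptors phosphorylate Smad1, Smad5 and Smad9. Both kinds then bind the common partner Smad4 and enter the nucleus, while the inhibitory Smad6 and Smad7 block the receptors and are themselves induced by the signal. In fat, TGF-beta acting through Smad3 restrains the formation of fat cells, and BMP signals favour it. Since Smad activity is set by phosphorylation, an array reports the supply of Smad transcripts and not signalling.

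The promoter stretches of Smad1 and Smad6, which had called probe sets, and of Smad3, the gene disrupted in the mutant, are shown because these genes lie next to the question of whether one Smad gene shifts with the loss of another. Each is the 250 bases before the start site in RefSeq, build GRCm38.p6, minus strand, 5′ to 3′. The stretch of Smad1 is chr8:79399429-79399678, that of Smad6 is chr9:64022060-64022309 and that of Smad3 is chr9:63757995-63758244.
Smad1: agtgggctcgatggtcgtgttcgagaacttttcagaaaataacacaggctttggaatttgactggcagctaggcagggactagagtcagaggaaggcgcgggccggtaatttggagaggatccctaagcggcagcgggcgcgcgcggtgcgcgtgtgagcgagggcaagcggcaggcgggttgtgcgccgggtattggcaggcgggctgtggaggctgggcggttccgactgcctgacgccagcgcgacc
Smad6: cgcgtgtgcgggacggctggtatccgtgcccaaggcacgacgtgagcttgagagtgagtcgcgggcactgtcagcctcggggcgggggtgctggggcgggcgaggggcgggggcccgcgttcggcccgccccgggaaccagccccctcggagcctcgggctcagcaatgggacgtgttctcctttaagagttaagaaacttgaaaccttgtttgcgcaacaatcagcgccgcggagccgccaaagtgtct
Smad3: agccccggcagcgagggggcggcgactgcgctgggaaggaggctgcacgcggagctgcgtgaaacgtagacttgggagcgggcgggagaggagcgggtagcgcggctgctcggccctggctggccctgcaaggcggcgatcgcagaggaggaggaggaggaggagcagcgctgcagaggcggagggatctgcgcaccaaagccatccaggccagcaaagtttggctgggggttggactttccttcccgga
No letters are in capitals, because neither the Smad-binding element CAGAC nor the GC-rich element GGCGCC was found in these windows on either strand. Of the Smad5 windows, which start from 3 different start sites, 1 holds CAGAC and 1 other holds GGCGCC, and the Smad9 window holds GGCGCC. The promoters of Smad2, Smad4 and Smad7 were not analysed here. Among 32851 promoters of the same length, 42.2% hold CAGAC and 9.59% hold GGCGCC. The motifs can overlap by 1 base, where one ends and the other starts. That these letters are missing from a window of this length says nothing about binding elsewhere.

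Smad2, Smad4 and Smad7 lie on chromosome 18, Smad5 on chromosome 13 and Smad9 on chromosome 3. All values below are log2 expression as deposited, and differences were tested with limma on all 45037 probe sets that are not array controls, called at a Benjamini-Hochberg adjusted p under 0.05. Errors of differences are SEs. Median levels were 6.32 to 6.39 on the 8 arrays of the diet experiment and 6.03 on the 4 antibody arrays, whose values spread more widely, so levels are compared only within an experiment. Levels of different probe sets are not set against each other. The dimmest members, whose signal may hold much background, were Smad9, the Smad3 probe sets 1450471_at and 1450472_s_at, and Smad7 1443771_x_at, whose means over the 12 arrays lay at the 18.5th, 37.7th, 27.4th and 6.29th percentile of all probe sets. Nothing in the labels tells whether replicates a and b are different animals, and the p-values therefore rest on a spread that may be technical.

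On the regular diet, several Smad genes other than Smad3 were lower in mice labelled Smad3-/- than in wild type, each by less than a log2 unit. Of the 18 probe sets 6 fell and 0 rose, a share of 33.3% lower, against 10.5% lower and 16.1% called in either direction among all probe sets. The 6 were 2 of Smad1, 1 of Smad2, 2 of Smad4 and the only one of Smad6. On the high fat diet 1 of 18 fell, Smad1 1448208_at, against 3.62% lower and 6.48% called among all probe sets. With the antibody 1 of 18 fell, Smad1 1416081_at, and 0 rose, against 9.93% lower and 19.2% called among all probe sets. Averaged over both diets, 5 of 18 were lower in mice labelled Smad3-/-, against 8.74% lower and 13.1% called among all probe sets. The probe sets of a gene share its transcripts, so these counts do not stand for 18 independent genes. With 1 probe set a gene, 2 of 8 Smads passed on the regular diet, against 24% of all genes. Counted that way, the Smads lie near the background. In tissue RNA, fewer cells of a type and less RNA per cell cannot be told apart. Smooth muscle markers, at 8.62 to 8.69 on KO_RD arrays and 11.68 on WT_RD arrays, and epididymis markers, at 12.01 to 12.08 on KO_RD arrays and 5.67 to 5.74 on WT_RD arrays, moved with the same comparison, and their part in it was not tested.

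**Figure D1:**
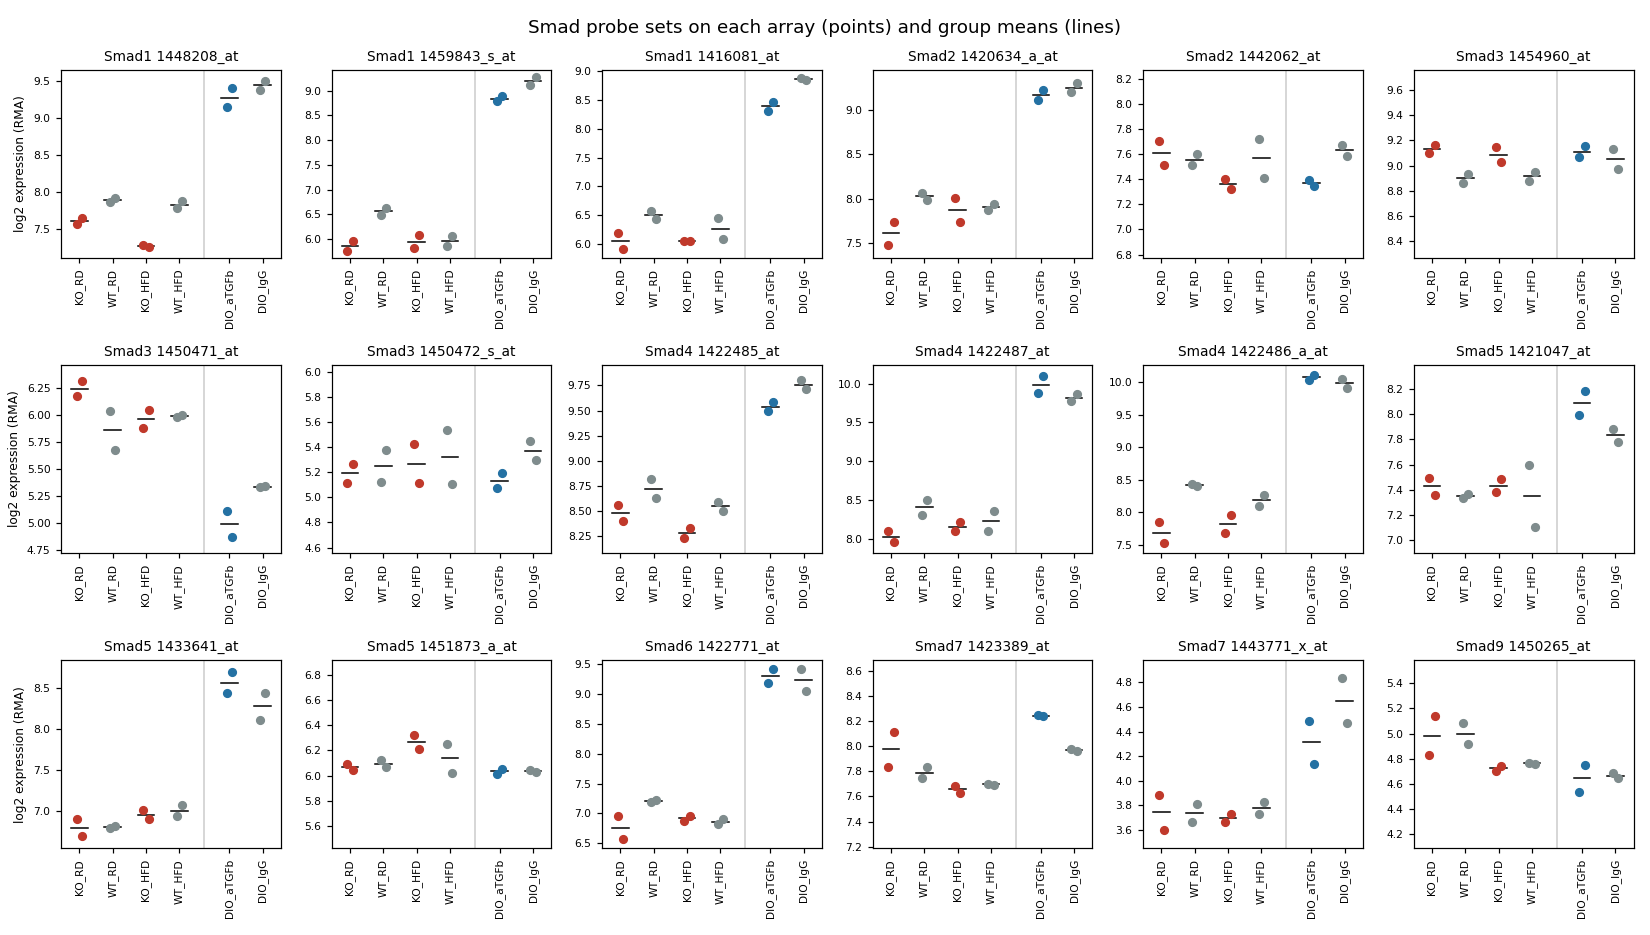
Log2 expression (vertical axis, a separate scale in each panel) of each of the 18 Smad probe sets on each array, in the 6 groups along the horizontal axis. Points are arrays, black lines group means, and the vertical line separates the 2 experiments. The KO_RD points lie below the WT_RD points for all 3 probe sets of Smad1 and of Smad4 and for Smad6.

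The probe sets of the targeted gene did not fall in mice labelled Smad3-/-. Smad3 1454960_at, the brightest, read 9.10 and 9.17 on the KO_RD arrays, against 8.86 and 8.94 on the WT_RD arrays, and 9.14 and 9.03 on the KO_HFD arrays, against 8.88 and 8.95 on the WT_HFD arrays. All 4 mutant arrays lay above all 4 wild-type arrays. The differences were 0.23 ± 0.11 (limma adjusted p = 0.16) on the regular diet and 0.17 ± 0.11 (limma adjusted p = 0.505) on the high fat diet, and neither passed.

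The dim Smad3 probe sets did not pass either. Smad3 1450472_s_at overlapped on both diets, at -0.06 ± 0.16 in each. On the high fat diet 1450471_at overlapped too (-0.03 ± 0.15). Smad3 1450471_at read 6.17 and 6.31 on the KO_RD arrays, against 6.03 and 5.68 on the WT_RD arrays, without overlap. Its difference of 0.39 ± 0.15 (limma adjusted p = 0.0953) passed only without replicate a of WT_RD, at 0.56 (limma adjusted p = 0.0458). Quantile normalization applied again over the 12 arrays let the brightest Smad3 probe set pass, higher by 0.48 in KO_RD (limma adjusted p = 0.00165) and by 0.34 in the average over diets (limma adjusted p = 0.002). The average over diets then had 1 Smad probe set higher and 4 lower, in place of 0 and 5. Their position relative to the disruption is unknown here, and a probe set outside the disrupted part would not check the genotype. With the antibody, Smad3 1454960_at read 9.07 and 9.16, against 9.13 and 8.97 with IgG, so the groups overlapped (0.06 ± 0.11, limma adjusted p = 0.775). The dim 1450471_at and 1450472_s_at were lower there without overlap and did not pass. Their differences were -0.34 ± 0.15 and -0.24 ± 0.16 (limma adjusted p = 0.127 and 0.36).

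Smad2, the other Smad that TGF-beta receptors phosphorylate, split between its 2 probe sets. Smad2 1420634_a_at read 7.48 and 7.74 on the KO_RD arrays, against 8.06 and 7.99 on the WT_RD arrays. The groups did not overlap, and the difference of -0.42 ± 0.12 passed (limma adjusted p = 0.0165). It no longer passed without replicate a of KO_RD or replicate a of WT_RD (limma adjusted p = 0.216 and 0.125). In high-fat-fed mice the same probe set read 8.01 and 7.74 on KO_HFD arrays, against 7.87 and 7.94 on WT_HFD arrays, with overlap (-0.03 ± 0.12). Smad2 1442062_at differed by 0.05 ± 0.13 on the regular diet and did not follow the first.

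With the antibody, neither Smad2 probe set passed. Smad2 1442062_at read 7.39 and 7.34, against 7.67 and 7.59 with IgG, without overlap (-0.26 ± 0.13, limma adjusted p = 0.167).

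Smad1, which carries BMP signals, was the only one of the 8 genes with a called probe set in each of the 3 comparisons. It was not through the same probe sets each time. On the high fat diet and with the antibody this rests on 1 call of 18 (5.56%). That is below the 6.48% and 19.2% called among all probe sets. With 1 probe set a gene, no Smad passed with the antibody. Smad1 1459843_s_at read 5.77 and 5.96 on the KO_RD arrays, against 6.50 and 6.62 on the WT_RD arrays, a difference of -0.70 ± 0.13 (limma adjusted p = 0.000342) that held when any 1 array was left out. Smad1 1416081_at read 6.20 and 5.91, against 6.58 and 6.44 (-0.46 ± 0.14, limma adjusted p = 0.0225). Its call ended without replicate b of KO_RD or replicate a of WT_RD (limma adjusted p = 0.274 and 0.18). The third, 1448208_at, read 7.57 and 7.65, against 7.87 and 7.92, also without overlap, but did not pass (-0.28 ± 0.12, limma adjusted p = 0.113).

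With the high fat diet it was the brightest Smad1 probe set that passed. Smad1 1448208_at read 7.28 and 7.26 on the KO_HFD arrays, against 7.78 and 7.87 on the WT_HFD arrays, a difference of -0.56 ± 0.12 (limma adjusted p = 0.00193) that held when any 1 array was left out. Smad1 1459843_s_at overlapped there, at 5.81 and 6.08 on KO_HFD arrays and 5.87 and 6.06 on WT_HFD arrays (-0.02 ± 0.13), and 1416081_at differed by -0.22 ± 0.14 (limma adjusted p = 0.522). Averaged over both diets, all 3 Smad1 probe sets fell, by 0.42, 0.36 and 0.34 on the log2 scale for 1448208_at, 1459843_s_at and 1416081_at (limma adjusted p = 0.000516, 0.00994 and 0.0205). The call of 1448208_at held when any 1 array was left out, whereas that of 1459843_s_at ended in 4 of 8 such fits (without replicate a of KO_RD, b of WT_RD, a of KO_HFD or b of WT_HFD, limma adjusted p = 0.0537, 0.0502, 0.0837 and 0.0619). That of 1416081_at ended in 5 of 8 (without replicate b of KO_RD, a of WT_RD, a or b of KO_HFD or a of WT_HFD, limma adjusted p = 0.128, 0.0909, 0.0628, 0.0521 and 0.143).

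With the antibody, Smad1 1416081_at read 8.31 and 8.47, against 8.88 and 8.85 with IgG. The groups did not overlap and the difference of -0.47 ± 0.14 passed (limma adjusted p = 0.0168). The call ended without replicate a of DIO_aTGFb, replicate a of DIO_IgG or replicate b of DIO_IgG (limma adjusted p = 0.15, 0.0875 and 0.0623) and after quantile normalization over the 12 arrays (-0.37, limma adjusted p = 0.115). Smad1 1459843_s_at read 8.79 and 8.89, against 9.11 and 9.28 (-0.35 ± 0.13, limma adjusted p = 0.0673), and passed with the replicate letter as a block (limma adjusted p = 0.0493) and in a fit of the antibody arrays alone (limma adjusted p = 0.0203). Smad1 1448208_at read 9.14 and 9.41, against 9.38 and 9.50, with overlap (-0.16 ± 0.12).

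The other BMP-regulated Smads did not pass in any of the 7 comparisons. The 3 probe sets of Smad5 differed between KO_RD and WT_RD by -0.03 ± 0.14 to 0.08 ± 0.14, with overlapping groups. The 95% interval for Smad5 1421047_at was -0.21 to 0.37 on the regular diet. With the antibody, that probe set read 7.99 and 8.19, against 7.88 and 7.78 with IgG (0.26 ± 0.14, limma adjusted p = 0.223), and 1433641_at read 8.43 and 8.69, against 8.11 and 8.44 (0.29 ± 0.13, limma adjusted p = 0.152). Smad9 1450265_at stayed between 4.54 and 5.14 on all 12 arrays.

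Smad4, the partner shared by both branches, was called lower in mice labelled Smad3-/- on the regular diet through 1422486_a_at and 1422487_at. Smad4 1422486_a_at read 7.85 and 7.52 on the KO_RD arrays, against 8.43 and 8.41 on the WT_RD arrays. This was the largest difference of the 18 on that diet, -0.73 ± 0.12 (limma adjusted p = 6.5e-05), and it held when any 1 array was left out. Smad4 1422487_at read 8.10 and 7.97, against 8.31 and 8.51 (-0.38 ± 0.12, limma adjusted p = 0.0291), and lost its call without replicate b of KO_RD or replicate b of WT_RD (limma adjusted p = 0.197 and 0.272), without the intensity trend (0.0655) and after quantile normalization (0.0867). Smad4 1422485_at read 8.57 and 8.41, against 8.82 and 8.63, without overlap, and did not pass (-0.24 ± 0.11, limma adjusted p = 0.167).

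No Smad4 probe set passed on the high fat diet. Smad4 1422487_at overlapped there (-0.07 ± 0.12, limma adjusted p = 0.881). Nor did it pass in the average over diets (-0.23 ± 0.08, limma adjusted p = 0.0851). Smad4 1422486_a_at read 7.68 and 7.96 on the KO_HFD arrays, against 8.10 and 8.27 on the WT_HFD arrays, without overlap (-0.37 ± 0.12, limma adjusted p = 0.0858), and passed only without replicate b of KO_HFD (limma adjusted p = 0.0499). Averaged over diets it was lower by 0.55 ± 0.09 (limma adjusted p = 4.02e-05), on all 4 mutant arrays against all 4 wild-type arrays, and this held when any 1 array was left out. Smad4 1422485_at was lower by 0.25 ± 0.08 in the average over diets (limma adjusted p = 0.0317), a call that ended in 4 of the 8 fits without 1 array (replicate b of KO_RD, a of WT_RD, a of KO_HFD or a of WT_HFD, limma adjusted p = 0.124, 0.167, 0.136 and 0.0952), without the intensity trend (0.0737), in the fit of the 8 arrays alone (0.051) and after quantile normalization (0.158).

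The antibody arrays gave no common direction for Smad4. Its 3 probe sets differed by 0.17 ± 0.12, 0.10 ± 0.12 and -0.22 ± 0.11 for 1422487_at, 1422486_a_at and 1422485_at, and none passed (limma adjusted p = 0.39, 0.666 and 0.19).

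Of the inhibitory Smads, Smad6 passed and Smad7 did not. Smad6 1422771_at, an antagonist mainly of BMP signals, read 6.96 and 6.57 on the KO_RD arrays, against 7.20 and 7.22 on the WT_RD arrays (-0.44 ± 0.14, limma adjusted p = 0.0278). The call ended without replicate b of KO_RD, replicate a of WT_RD or replicate b of WT_RD (limma adjusted p = 0.398, 0.103 and 0.122). Smad6 overlapped on the high fat diet, at 6.88 and 6.96 on KO_HFD arrays and 6.82 and 6.91 on WT_HFD arrays (0.06 ± 0.14). With the antibody it read 9.17 and 9.41, against 9.41 and 9.05 with IgG, again with overlap.

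Smad7, which TGF-beta induces and which turns off its receptor, was measured mainly by 1423389_at. It read 7.83 and 8.11 on the KO_RD arrays, against 7.74 and 7.83 on the WT_RD arrays, 0.19 ± 0.12 higher (limma adjusted p = 0.342), with a 95% interval of -0.06 to 0.43. With the antibody it read 8.25 and 8.24, against 7.98 and 7.96 with IgG. The groups did not overlap, but the difference of 0.27 ± 0.12 did not pass (limma adjusted p = 0.111; 95% interval 0.03 to 0.52). The dim Smad7 1443771_x_at went the other way in that comparison (-0.34 ± 0.15, limma adjusted p = 0.111), and passed without replicate a of DIO_aTGFb or replicate b of DIO_IgG (limma adjusted p = 0.0396 and 0.0353).

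**Figure D2:**
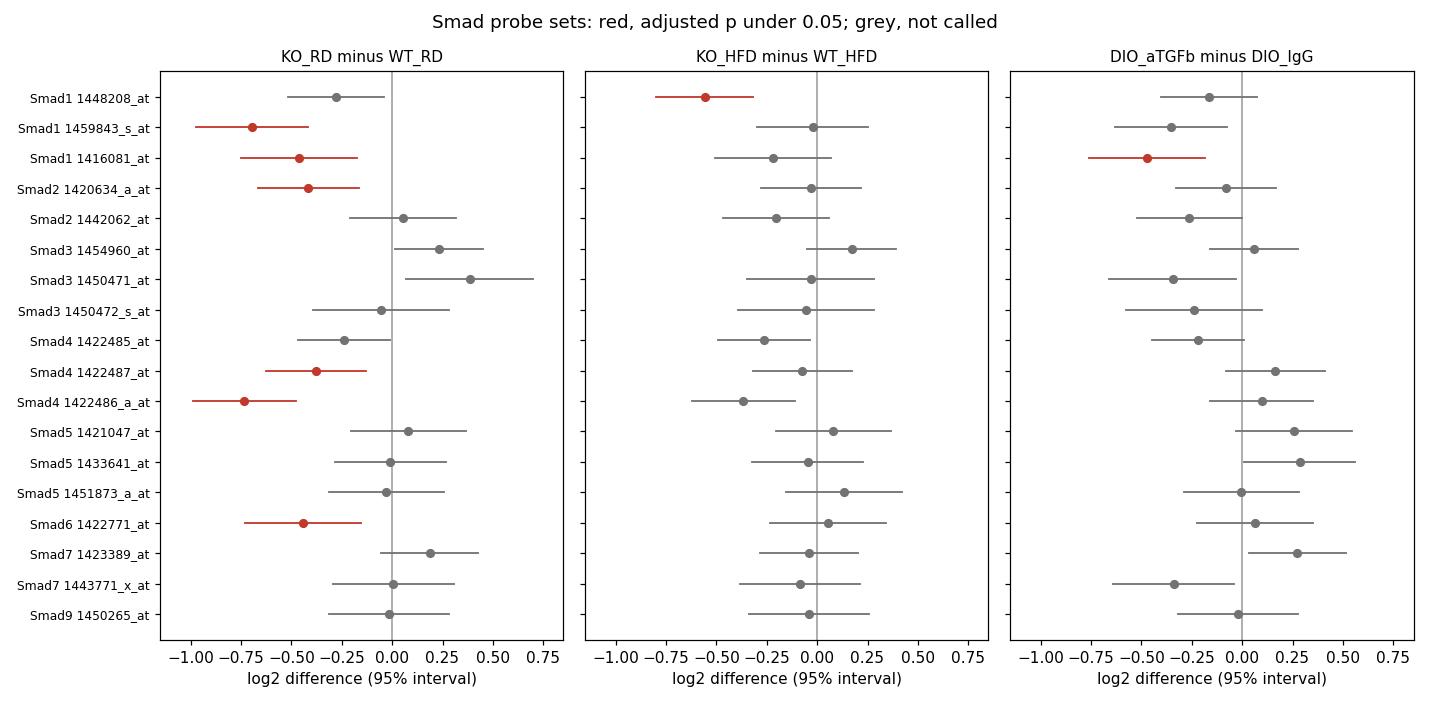
Log2 differences (horizontal axis) of the 18 Smad probe sets (vertical axis) for KO_RD minus WT_RD, KO_HFD minus WT_HFD and DIO_aTGFb minus DIO_IgG. Points are limma estimates from 2 arrays a side, lines are 95% intervals, and red marks an adjusted p under 0.05. The 6, 1 and 1 called probe sets all lie below 0.

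Seen over all 18 probe sets, the median difference was -0.04 for KO_RD minus WT_RD, against 0.05 over all probe sets. It was -0.04 on the high fat diet and -0.05 with the antibody, against 0.00 over all probe sets in both. Groups of 2 arrays did not overlap in 11, 9 and 9 of the 18 Smad probe sets for the regular diet, the high fat diet and the antibody. The same held for 54.4%, 45% and 55.4% of all probe sets, so these counts lie near the background. The genotype comparisons on the 2 diets share no array, and neither shares one with the antibody comparison.

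In mice labelled Smad3-/-, 0 of 18 probe sets passed limma's test between KO_HFD and KO_RD, against 10.6% of all probe sets, and 3 had an unadjusted p under 0.05. The nearest were Smad1 1448208_at, lower by 0.34 (limma adjusted p = 0.0583), and Smad7 1423389_at, lower by 0.32 (limma adjusted p = 0.0917) at 7.68 and 7.63 on KO_HFD arrays, against 7.83 and 8.11 on KO_RD arrays. Both passed after quantile normalization (limma adjusted p = 0.0149 and 0.0293), and Smad7 1423389_at also without replicate a of KO_RD (limma adjusted p = 0.0296). Smad1 1448208_at passed too among probe sets above the 40th percentile (limma adjusted p = 0.041) and with 1 probe set a gene (limma adjusted p = 0.0369). In wild type 1 of 18 passed, against 6.83% of all probe sets. This was Smad1 1459843_s_at, lower by 0.59 ± 0.13 in WT_HFD than in WT_RD (limma adjusted p = 0.00445), a call that ended without replicate a of WT_HFD or replicate b of WT_RD (limma adjusted p = 0.0955 and 0.0706). That comparison uses the same WT_RD arrays as the genotype comparison on the regular diet.

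Whether the genotype difference depended on diet was tested directly by the interaction, the difference on the high fat diet minus that on the regular diet. Of the 18 probe sets 1 passed, Smad1 1459843_s_at at 0.67 ± 0.19 (limma adjusted p = 0.017), against 11.9% of all probe sets. It was lower in the mutant on the regular diet by 0.70 and differed by -0.02 on the high fat diet. The call ended without replicate b of KO_HFD, replicate a of WT_HFD, replicate a of KO_RD or replicate b of WT_RD (limma adjusted p = 0.129, 0.0987, 0.0849 and 0.079). The brightest Smad1 probe set, 1448208_at, went the other way (-0.28, limma adjusted p = 0.371), and 1416081_at did not pass (0.24, limma adjusted p = 0.575). For Smad6 the interaction was 0.50 (limma adjusted p = 0.118) and for Smad2 1420634_a_at 0.39 (limma adjusted p = 0.183). For Smad4 1422486_a_at it was 0.37 (limma adjusted p = 0.23). For Smad6, Smad2 1420634_a_at and Smad4 1422486_a_at, the main fit thus did not show a difference between diets. The interaction of Smad6 passed without replicate a of KO_RD (0.70, limma adjusted p = 0.0255) and after quantile normalization (limma adjusted p = 0.0377).

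The probe sets of a gene followed each other to different degrees over the 12 arrays, after the mean of each experiment was taken away. For Smad4 1422487_at and 1422486_a_at Pearson's r was 0.81 and Spearman's rho 0.77. The 3 Smad1 pairs had r of 0.60 to 0.67 and rho of 0.54 to 0.63. For Smad3 the 3 pairs had r of -0.09 to 0.17, and for Smad2 r was -0.19, so a single value per gene would hide these differences. These correlations describe 12 arrays that fall into 6 groups. Suffixes tell part of the design: an s_at probe set can match transcripts of several genes and an x_at probe set holds probes resembling other sequences.

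The genes whose brightest probe set followed each Smad's brightest most closely over the 12 arrays, by the same measure, were Prl7a1, Wnt2 and Tshz3 for Smad3 (r = 0.95, 0.93 and 0.91). They were Akr1a1 for Smad1 (r = 0.92), Ehbp1l1 for Smad2 (0.91), Ccnd1 for Smad4 (0.94), Riok1 for Smad5 (0.91), Cpeb1 for Smad6 (0.95), Abraxas1 for Smad7 (0.96) and Prpf31 for Smad9 (0.93). Among 16307 genes, these 3 ranked highest for Smad3, and the gene named for each other Smad ranked highest for it. Picking the highest of so many correlations over 12 arrays favours a large r. These r values were not set against a chance level, so they do not show shared regulation.

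Genes that act around the Smads were counted from 7 lists, with 1 probe set a gene. On the regular diet, TGF-beta target genes had 11 of 16 lower in mice labelled Smad3-/- and 0 higher, against 14.6% lower and 7.38% higher among all genes, and their median was -1.23, against 0.04 over all genes. Thbs1, which encodes thrombospondin 1, an activator of latent TGF-beta, averaged 5.63 in KO_RD and 8.78 in WT_RD (-3.15 ± 0.12). Cnn1, Tagln and Acta2, contractile proteins, were lower, with differences of -4.54, -3.28 and -2.12. These 3 are also smooth muscle markers.

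Among 15 receptors, 5 fell on the regular diet and 1 rose, with differences of -1.38 for Tgfbr3 (betaglycan, a co-receptor), -0.57 and -0.45 for Bmpr2 and Bmpr1a (BMP receptors) and -0.52 for Tgfbr2, the receptor that binds TGF-beta. Of 17 extracellular regulators 8 fell and 1 rose, with Htra1, a secreted protease, at -2.12, the follistatin-like Fstl1 at -1.41 and Fst (follistatin, which binds activin) at -1.21. Among 26 ligands 4 fell and 2 rose, near the 14.6% lower and 7.38% higher among all genes. Inhbb, an activin subunit, was at -1.13, Tgfb3 at -0.89, Gdf10 at -0.71 and Inha, an inhibin subunit, at 0.75.

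Inside the cell, 8 of 20 ubiquitin ligases, deubiquitinases and phosphatases that act on Smads or their receptors fell on the regular diet and 1 rose. The differences were -1.30 for the phosphatase Ctdspl, -0.81 for the ubiquitin ligase Nedd4, -0.81 for Ppm1a, a phosphatase of Smad2 and Smad3, and -0.65 for the deubiquitinase Usp4. Of 23 partners and cofactors 4 fell and 3 rose, beside 14.6% lower and 7.38% higher among all genes. The kinase Hipk2 differed by -1.78, Pmepa1, a TGF-beta-induced protein that holds back receptor-regulated Smads, by -1.17 and Tob1 by -0.55, and the corepressor Tgif1 was higher by 0.92. BMP target genes had 3 of 11 lower and 0 higher, Id3 at -1.72, Id1 at -0.89 and Id2 at -0.56. The Id genes encode inhibitors of helix-loop-helix factors. The genes named here for the regular diet had SEs of 0.10 to 0.16 and limma adjusted p of at most 0.00691.

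High-fat-fed mice showed fewer calls, beside 5.29% lower and 4.11% higher among all genes. TGF-beta target genes had 3 of 16 higher and 3 lower, with Tagln, also a smooth muscle marker, higher by 1.33 ± 0.11 and Thbs1, the collagen cross-linker Lox and Pmepa1 lower, at -1.24, -0.82 and -0.75. Extracellular regulators had 4 of 17 lower and 0 higher, among them Htra1 at -0.92, Ltbp3 at -0.51 and Fstl3 at -0.48. Id1 averaged 9.10 in KO_HFD and 7.80 in WT_HFD, higher by 1.30 ± 0.13, whereas Id3 was lower by 0.56. These were the 2 called genes of 11 BMP targets. Of the receptors 1 rose (Eng, endoglin, by 0.65) and 0 fell, of the ligands 1 fell (Inhbb, -0.66), of the ligases, deubiquitinases and phosphatases 1 fell (Nedd4l, -0.74), and of the partners 1 rose (Tob1, 0.52) and 2 fell (Pmepa1 and the adaptor Dab2, -0.75 and -0.50). Limma adjusted p was at most 0.0209 for these genes.

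With the antibody, TGF-beta target genes had 7 of 16 lower and 3 higher, against 11.7% lower and 11% higher among all genes. The collagens Col3a1 and Col1a1 differed by -1.48 and -1.13, the protease inhibitor Timp1 by -1.25 and Lox by -0.93. Thbs1, also on this list and lower in mice labelled Smad3-/- on both diets, was among the 3 higher, by 0.54. Tgfb1, the ligand, averaged 8.42 with the antibody and 9.25 with IgG (-0.83 ± 0.12). Among 26 ligands 3 rose and 4 fell, near the shares among all genes, with Bmp4 at 0.76, Bmp2 at -0.66 and Gdf3 at -0.60. Of the 11 BMP targets 3 rose (Atoh8 by 1.35, Id1 by 1.15 and Id4 by 0.61) and 2 fell, led by Hamp at -1.82. Hamp was read from an x_at probe set and averaged 4.54 with the antibody and 6.35 with IgG. Bmp2 averaged 4.60 and 5.27. The 40th percentile of the DIO_aTGFb arrays was 5.46 to 5.47, so the lower values may hold much background.

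Extracellular regulators had 5 of 17 higher and 4 lower with the antibody, with Thbs1 and Chrdl1 (a BMP antagonist) each higher by 0.54 and Fstl3 and Fstl1 lower, at -0.72 and -0.65. Receptors had 2 of 15 higher and 0 lower, Acvr1c by 0.42 and Eng by 0.40. Among all genes 11% were higher and 11.7% lower. Partners had 1 of 23 higher (Tob2 by 0.73) and 2 lower (Hipk2 at -0.70 and Tgif1 at -0.58). Ligases, deubiquitinases and phosphatases had 3 of 20 higher and 2 lower, among them Smurf1, which marks BMP-regulated Smads for breakdown, higher by 0.43 and Nedd4l lower, at -0.58. Limma adjusted p was at most 0.0321 for the genes named with the antibody.

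**Figure D3:**
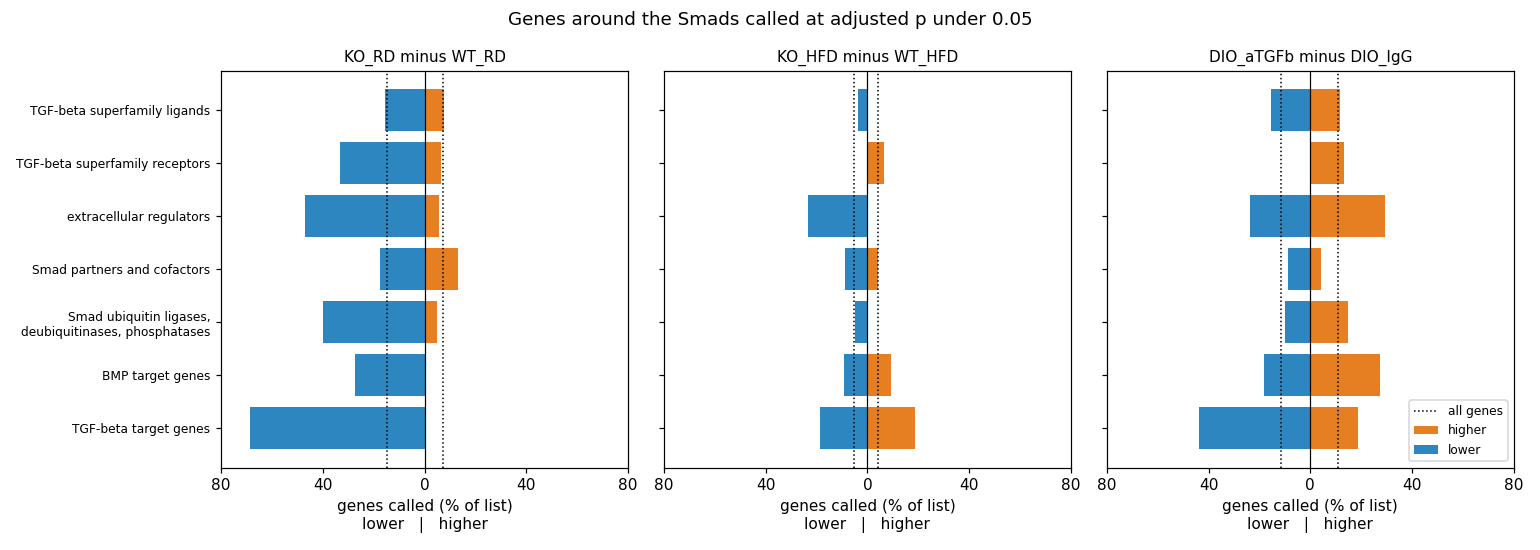
Share of each list's measured genes called lower (blue, to the left of 0) or higher (orange, to the right) in percent, for KO_RD minus WT_RD, KO_HFD minus WT_HFD and DIO_aTGFb minus DIO_IgG, with dotted lines at the shares over all 18194 genes. On the regular diet TGF-beta target genes have 11 of 16 lower and 0 higher.

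Markers of other cell types moved with the same groups, and their part in the Smad differences was not tested. On the regular diet 7 of 7 smooth muscle markers fell and 7 of 7 epididymis markers rose, by the list means given above. The smooth muscle mean was 7.69 to 7.81 on WT_HFD arrays, so WT_RD stood apart. White adipocyte markers had 6 of 7 lower, endothelial markers 4 of 8, macrophage markers 7 of 9 and fibroblast markers 2 of 7 in KO_RD. Each of these lists had 0 higher. Skeletal muscle markers had 4 of 10 higher and 3 lower. Among all genes 14.6% were lower and 7.38% higher. Gapdh's 3′ minus 5′ signal, which grows as RNA degrades, was 0.28 and 0.41 on KO_RD arrays, against 0.12 and 0.14 on WT_RD arrays.

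In the other comparisons skeletal muscle and brown fat markers moved most. Among all genes 4.11% were higher and 5.29% lower on the high fat diet, and 11% higher and 11.7% lower with the antibody. For the high fat diet the mean of 10 skeletal muscle markers was 10.57 to 10.71 on KO_HFD arrays and 5.61 to 5.63 on WT_HFD arrays, and with the antibody 11.13 to 11.16, against 5.35 to 5.40 with IgG, with 10 of 10 higher in both. Smooth muscle markers had 5 of 7 higher and 0 lower in each of these comparisons, and macrophage markers had 5 of 9 lower and 0 higher on the high fat diet (medians of 0.82 and -0.37 in that comparison). Brown adipocyte markers had 6 of 7 higher in each of the 3 comparisons, led by Ucp1, the uncoupling protein, at 12.38 in KO_RD and 6.42 in WT_RD. With the antibody, macrophage markers had 8 of 9 lower, 9.89 to 9.90, against 11.14 to 11.20 with IgG. The 3′ minus 5′ signal of actin was 0.87 and 0.75 with the antibody, against 0.61 and 0.67 with IgG. That of Gapdh overlapped, at 0.085 and 0.14, against 0.02 and 0.10 with IgG. On the high fat diet it also overlapped, at 0.39 and 0.37 on KO_HFD arrays, against 0.36 and 0.50 on WT_HFD arrays.

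**Figure D4:**
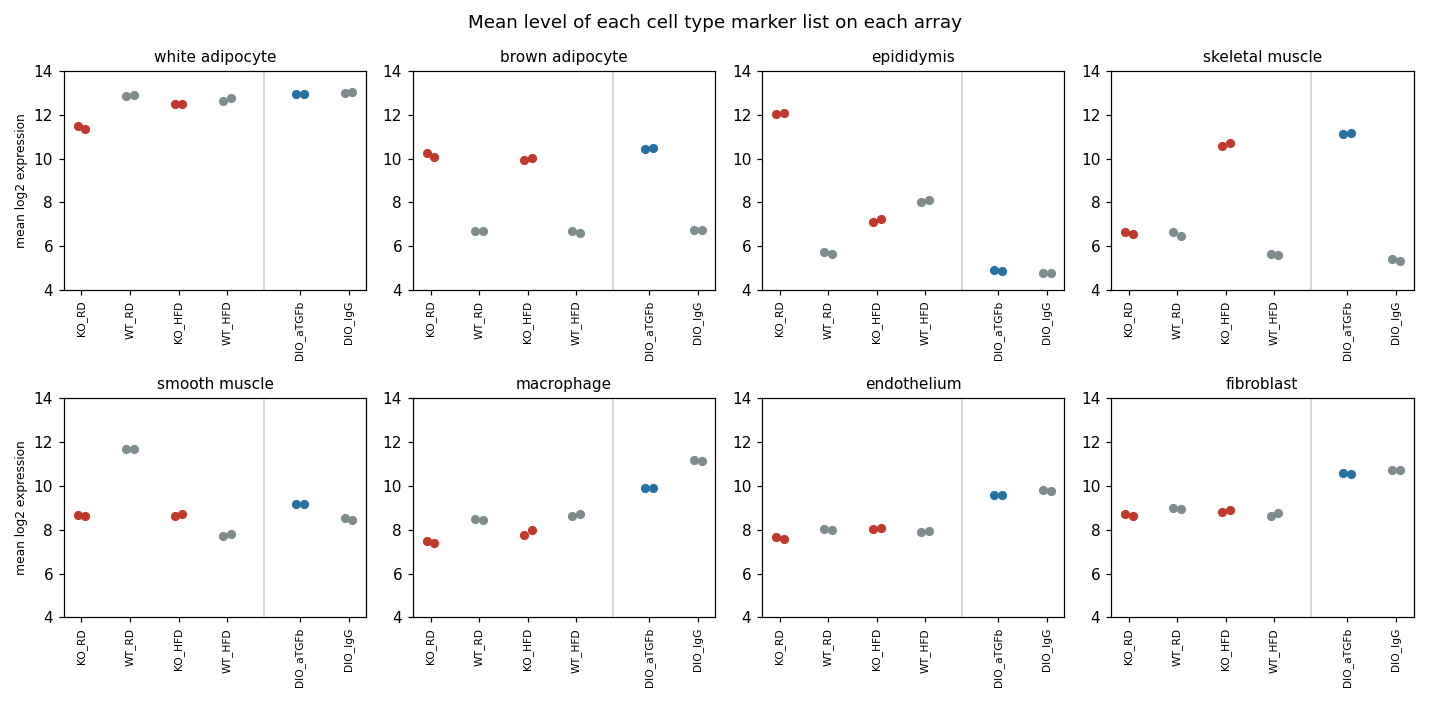
Mean log2 expression (vertical axis) of 8 cell type marker lists on each array (points), by group (horizontal axis). Smooth muscle markers stand highest on the WT_RD arrays at 11.68, epididymis markers on the KO_RD arrays at 12.01 to 12.08, and skeletal muscle markers on the KO_HFD and DIO_aTGFb arrays.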

How the data were processed

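The deposited values are log2 expression per probe set, made with RMA and Partek per the submitters' processing notes, from 6 ug of total RNA per array per the labels' protocols, with no version stated. By GEO's annotation of the array, 34958 of 45101 probe sets name 1 gene, 932 several and 9211 none. All 18 Smad probe sets were kept, with no filter on low values, and 64 control probe sets were left out of the tests.

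Group means were fitted over all 12 arrays in R 4.3.3 with limma 3.58.1 (lmFit, then eBayes with its variance prior following intensity; two-sided p-values, Benjamini-Hochberg over 45037 probe sets; 6 residual and 19.1 prior degrees of freedom), and the script was tested on simulated data. For gene lists the brightest probe set naming only that gene was used (18194 genes), with p-values adjusted over all probe sets. Named genes are the up to 4 called genes of each list with the smallest p in a comparison. The members and lists were chosen with earlier results of these data known. Having 2 arrays a group sets the precision: SEs of Smad differences between 2 groups were 0.11 to 0.16.

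The letters a and b were not treated as pairs in the main fit. Deviations from group means correlated at -0.11 to 0.13 between groups, too weakly to tell whether the letters pair the arrays. Alternatives were no trend, robust eBayes, a filter at the 40th percentile, 1 probe set a gene, median centring, quantile normalization, the arrays of 1 experiment, arrayWeights, the replicate block, a test against 1.2-fold and fits without each array in turn.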

Additional observations from a re-analysis of the deposited data

Results flagged for a closer look

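The genotype difference of Smad1 1459843_s_at differed between the diets, by 0.67 log2 in the test of the difference itself (limma adjusted p = 0.017). It passed in 4 of the 8 fits that left out 1 of its arrays, and ended without replicate b of KO_HFD, replicate a of WT_HFD, replicate a of KO_RD or replicate b of WT_RD (limma adjusted p = 0.129, 0.0987, 0.0849 and 0.079). The group means were 5.95 in KO_HFD, 5.97 in WT_HFD, 5.86 in KO_RD and 6.56 in WT_RD, so WT_RD stood apart. Smad1 1448208_at went the other way (-0.28, limma adjusted p = 0.371), and 1416081_at did not pass (0.24, limma adjusted p = 0.575). Smooth muscle markers, highest in WT_RD, had 7 of 7 higher in the same interaction (median 4.05). Skeletal muscle markers had 10 of 10 higher (median 4.28) and white adipocyte markers 6 of 7 higher (median 1.51). Epididymis markers, highest in KO_RD, had 7 of 7 lower (median -7.03). Among all probe sets 11.9% were called in that test. The part of these lists in the Smad1 interaction was not tested. Groups of 2 arrays are too small for a search for single arrays far from the others.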

How the results depend on the processing

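No called Smad value changed sign under the alternatives listed above. Of 1810 recomputed values, 1743 kept their side of the threshold, 49 lost a call and 18 gained one. With 1 probe set a gene, 8 Smads were tested in place of 18 probe sets. For genotype on the regular diet 2 passed, against 24% of all genes, and averaged over diets 2, against 19.4%. On the high fat diet 1 passed, against 10.8%, and for diet in Smad3-/- 1, against 17.3%. For the antibody, diet in wild type and the interaction 0 passed, against 24.3%, 10.8% and 18.8%. A minimum of 1.2-fold left 2, 1, 0, 0, 0 and 0 for genotype on the regular diet, averaged over diets and on the high fat diet, the antibody, diet in wild type and the interaction. In that order, 7.24%, 3.74%, 2.29%, 7%, 2.58% and 6.56% of all probe sets passed. After quantile normalization over the 12 arrays 0 passed for the antibody, 2 for diet in Smad3-/- and 2 for the interaction. The antibody count was 2 in a fit of its 4 arrays alone and 2 with the replicate block, which changed no other call among the Smads. Above the 40th percentile 14 Smad probe sets were tested, of which 6 passed for genotype on the regular diet, against 26.3% of all, and 1 for diet in Smad3-/-. Leaving out 1 array gave 3 to 5 for genotype on the regular diet, 1 to 2 on the high fat diet, 3 to 4 averaged over diets, and 0 to 1 each for the antibody, diet in Smad3-/-, diet in wild type and the interaction. Median centring moved the split over all probe sets for genotype on the regular diet to 1819 higher and 5462 lower, and quantile normalization to 3796 and 4649, from 2537 and 4725 as deposited. The causes were not tested. Dim probe sets limit what can be said of Smad9.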
